A study of Danio rerio with 3 samples.

Results

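Fast skeletal muscle genes were examined on 3 arrays of adult zebrafish brain RNA as a check for carry-over of muscle into the dissected tissue. The 10 genes were chosen by name, when earlier results of these data were already known. They were the parvalbumin genes pvalb1, pvalb2, pvalb3 and pvalb4, the creatine kinase genes ckma and ckmb, and the fast-fibre genes tnnt3b, mylpfa, actc1b and myhz2. All 10 were found among the 19260 genes that the array's annotation names. The naive group was kept on a daily cycle of 14 h light and 10 h dark, the fear-conditioned group was trained by inhibitory avoidance, a task that pairs a place or response with an aversive stimulus, and the sleep-deprived group was under light for 24 h a day, with 0 h dark, over 3 days. All fish were 6 months old and kept at 28 °C, and the labels name no strain, transgene or other agent. They do not say how many fish an array stands for or which hours of light the fear-conditioned group had. Each group was measured on 1 array, so there is no replicate error and no test, every difference describes this set of arrays, and the number of arrays limits the precision.

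Fast, or white, fibres make up most of the trunk muscle of fish and power short bursts of swimming. Parvalbumins are small calcium-binding proteins that take up calcium after a twitch and so speed relaxation, muscle creatine kinase regenerates ATP from phosphocreatine, and myosin, actin and the troponins form the contractile filaments. Brain has its own parvalbumin and creatine kinase genes, expressed in neurons and other brain cells, whereas the paralogs described here are used as markers of muscle. In whole-tissue RNA, more or fewer cells of a type and more or less RNA per cell cannot be told apart.

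On the fear-conditioned array 2 of the 10 genes, pvalb2 and ckma, were at least 2-fold higher than on the naive array, as were 0.245% of all genes above a dim limit, and the other genes were between 0.00 and 0.56 higher on the log2 scale. None of the 10 was 2-fold apart from naive, in either direction, on the sleep-deprived array, where 0.0947% of all genes were higher and 0.668% lower by that much. The contractile genes tnnt3b, mylpfa and myhz2 had exactly the same value on all 3 arrays.

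The signals are log2 values as deposited. A limit of 3.45, the lower quartile of all values in the table, served to set aside dim genes; it is not a measured background. Of the 10 genes, 9 were at or above this limit on the naive array and 8 on every array, and none needed the fear-conditioned or sleep-deprived array to pass. The myosin gene myhz2 stayed below it everywhere and is left out of the counts over genes above the limit. The median of all values, from probe sets with and without a gene name, was 4.99 on each array, and 5 of the 10 genes never reached it. Of all 19260 named genes, 17958 reached the dim limit on some array and 14595 reached this median. The neuron list, a check of the labelled tissue, had 19 of 19 measured genes above that median on every array, with signals from 5.84 to 11.98. Because most named genes reached that median on some array, this count alone is a weak check.

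**Figure D1:**
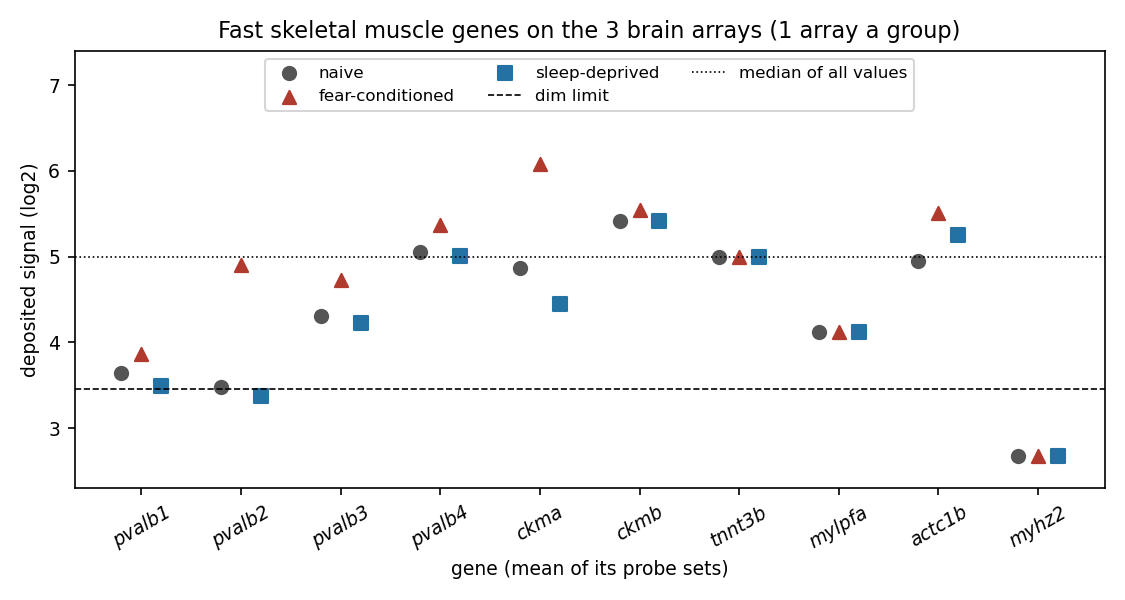
Deposited log2 signal (vertical axis) of the 10 fast skeletal muscle genes (horizontal axis) on the naive, fear-conditioned and sleep-deprived arrays, 1 point per array; the dashed line is the dim limit of 3.45 and the dotted line the median of all values, 4.99. The fear-conditioned point stands well above the other two for pvalb2 and ckma, and the 3 points are level for tnnt3b, mylpfa and myhz2.

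Among the parvalbumin genes, pvalb2 had the largest difference. Its signal was 3.48 on the naive array, 4.90 on the fear-conditioned array and 3.37 on the sleep-deprived array. Only the fear-conditioned array was clearly above the dim limit, and the sleep-deprived one was below it. The log2 difference between fear-conditioned and naive was 1.42, which is 2.68-fold, and the gene ranked 14 among the 17958 genes above the dim limit from the most positive difference down. Because the naive signal lies so close to the dim limit, the size of this fold is uncertain.

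The other 3 muscle parvalbumins had their highest signal on the same array, by smaller amounts. The signal of pvalb3 was 4.31 naive, 4.73 fear-conditioned and 4.23 sleep-deprived, a difference of 0.42 between fear-conditioned and naive. That of pvalb1 was 3.64, 3.86 and 3.49 in the same order, a difference of 0.22. None of these differences reached 1.5-fold, and for both genes the sleep-deprived signal was the lowest. For pvalb4, measured by 2 probe sets, the mean signal was 5.05 naive, 5.37 fear-conditioned and 5.01 sleep-deprived, a difference of 0.32 between fear-conditioned and naive. The 2 probe sets did not do the same: one read 4.42 on all 3 arrays, whereas the other read 5.67 naive, 6.31 fear-conditioned and 5.59 sleep-deprived. The second alone gave a difference of 0.63.

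The parvalbumin genes lie in 2 groups of neighbours in the gene order of the zebrafish assembly GRCz12tu. In the order of protein-coding genes, pvalb8, pvalb4, pvalb1 and pvalb5 follow each other, and so do pvalb9, pvalb3 and pvalb2. Fear-conditioned minus naive, the first row had log2 differences of 0.15, 0.32, 0.22 and 0.00, and the second row 0.11, 0.42 and 1.42. Within the second row the difference was thus largest in pvalb2. Parvalbumin genes are close paralogs, and whether their probes bind more than 1 of the transcripts was not examined here.

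The creatine kinase gene ckma had the second largest difference from naive. Its signal was 4.87 on the naive array, 6.08 on the fear-conditioned array and 4.44 on the sleep-deprived array, all above the dim limit. The log2 difference between fear-conditioned and naive was 1.21, which is 2.32-fold, at rank 27 of 17958. Its paralog ckmb, also a muscle-type creatine kinase gene, read 5.42 naive, 5.54 fear-conditioned and 5.42 sleep-deprived. That is a difference of 0.12 from naive on the fear-conditioned array and of 0.00 on the sleep-deprived one.

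The 4 contractile genes split into actc1b, which came next after pvalb2 and ckma on the fear-conditioned array, and 3 genes listed with equal values. The actin gene actc1b, expressed in skeletal and heart muscle of fish, had a mean signal over 2 probe sets of 4.95 naive, 5.51 fear-conditioned and 5.25 sleep-deprived. Its difference from naive was 0.56 on the fear-conditioned array and 0.30 on the sleep-deprived array, and with the deposited scaling it alone among the 10 genes had a sleep-deprived signal above naive. Both probe sets had the same order of arrays, and they differed in size. The brighter one read 6.25, 6.52 and 6.44 on the naive, fear-conditioned and sleep-deprived arrays, and the dimmer one was 0.86 above its naive signal of 3.65 on the fear-conditioned array and 0.41 above it on the sleep-deprived array.

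The signal of tnnt3b, which encodes fast troponin T, was 4.99 on every array, that of mylpfa, a regulatory light chain of fast myosin, 4.13, and that of myhz2, a fast myosin heavy chain, 2.68. Exact equality of this kind was common in the table, with 34.2% of genes above the dim limit equal on all 3 arrays. The same number also recurred within an array: the value of tnnt3b was shared by 223 probe sets on the naive array and that of mylpfa by 392. Such recurring values were not limited to tied genes. The naive value of ckma was shared by 103 probe sets and that of the dimmer actc1b probe set by 356. An exact tie therefore gives no measure of how large a difference could have gone unseen. A further probe set that the annotation assigns to both myhz2 and another fast myosin gene was not used for either.

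**Figure D2:**
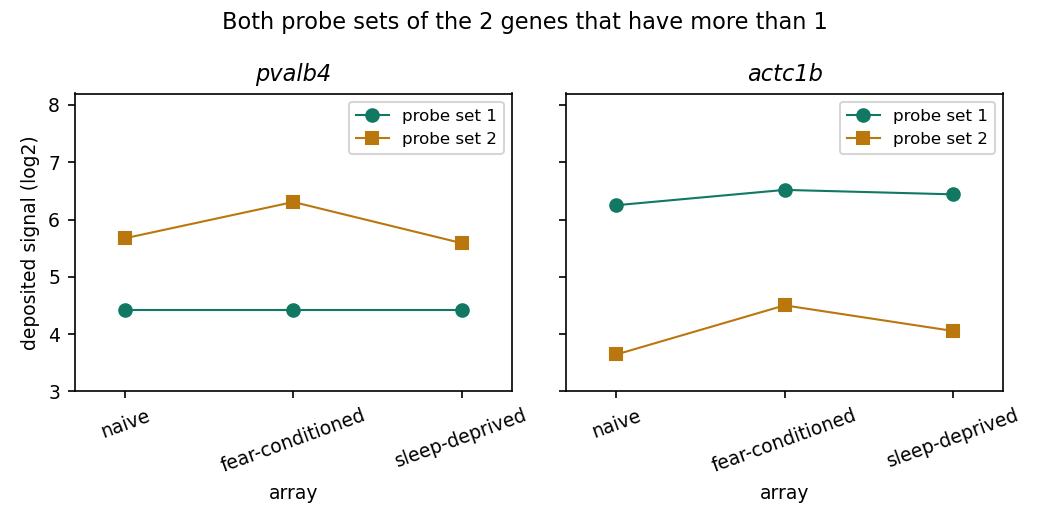
Deposited log2 signal (vertical axis) of each probe set of pvalb4 and actc1b on the 3 arrays (horizontal axis), 1 line per probe set. For pvalb4 the dimmer probe set is flat at 4.42 and the brighter one peaks at 6.31 on the fear-conditioned array; for actc1b both are highest on that array.

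The fear-conditioned array was compared with the naive array to see which genes accompany inhibitory avoidance learning. Of the 9 genes above the dim limit, 7 had a positive difference, 0 a negative one and 2 exactly 0. The median log2 difference of these 9 was 0.32, and over all 10 it was 0.27, beside a median of 0.00 over all 17958 genes. Of those 17958, 5492 had a positive difference, 4172 a negative one and 8294, or 46.2%, exactly 0. The 2 genes past 2-fold, both higher, stand beside a background of 0.245% of all genes higher by that much, and none of the 9 was lower by 2-fold, where the background was 0.184%. The signal of the 10 genes summed on the linear scale was 1.39 times that of the naive array. Bright genes weigh most in this sum, and ckma was the brightest of the 10 on the fear-conditioned array, at 6.08. The equal genes tnnt3b, mylpfa and myhz2 added nothing to the rise.

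On the sleep-deprived array compared with naive, which addresses the effect of extended light, the differences of the 10 genes ran from -0.42 for ckma to 0.30 for actc1b. Those of pvalb1, pvalb2, pvalb3 and pvalb4 were -0.15, -0.11, -0.08 and -0.04. Of the 9 genes above the dim limit 5 had a negative difference, 1 a positive one and 3 exactly 0, and the median was -0.04. Over all 17958 genes, 5557 had a negative difference, 4445 a positive one and 7956, or 44.3%, exactly 0. The array's own median over named genes lay 0.04 below that of the naive array, and taking this shift out moved the list median to 0.0017 and so turned its sign. None was at least 2-fold higher or lower, where 0.0947% and 0.668% of all genes were. The summed signal was 0.982 times that of the naive array.

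**Figure D3:**
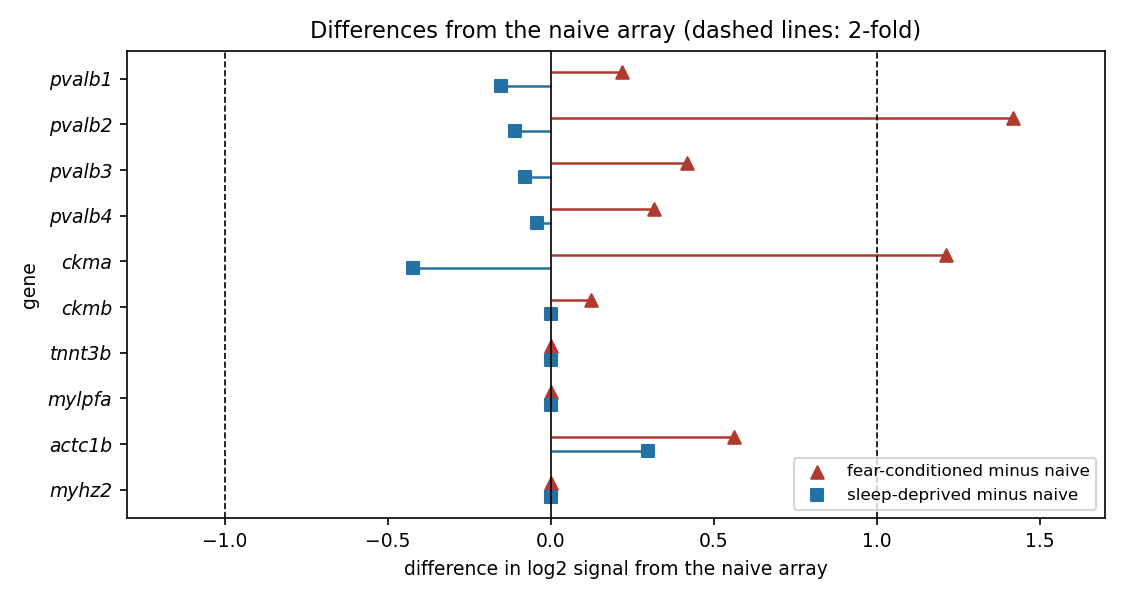
Difference in log2 signal from the naive array (horizontal axis) for each of the 10 genes (vertical axis), with triangles for the fear-conditioned and squares for the sleep-deprived array; dashed lines mark 2-fold. On the fear-conditioned array pvalb2 (1.42) and ckma (1.21) lie past the 2-fold line, and on the sleep-deprived array the 10 genes lie between -0.42 and 0.30.

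The sleep-deprived and fear-conditioned arrays were also set against each other, a comparison that shares its arrays with the other two and adds no independent measurement. The log2 difference, sleep-deprived minus fear-conditioned, was -1.64 for ckma and -1.53 for pvalb2, followed by -0.50 for pvalb3, -0.37 for pvalb1, -0.36 for pvalb4, -0.26 for actc1b and -0.12 for ckmb. The fear-conditioned array was thus 3.11-fold above the sleep-deprived one for ckma and 2.89-fold for pvalb2, the latter with a sleep-deprived signal below the dim limit. Lower by 2-fold or more were 2 of the 9 genes, beside a background of 0.869%, and none was higher by that much, beside a background of 0.134%. The median was -0.36.

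Other genes of fast fibres were looked up to see how far the difference on the fear-conditioned array extended. Of 44 further genes of the fast sarcomere, 36 were measured and 32 lay above the dim limit. By 1.5-fold, 0.83% of all genes were higher and 0.763% lower on the fear-conditioned array, and 0.484% and 2.43% on the sleep-deprived array. None of the 32 reached 1.5-fold in either direction on these arrays, and 20 of them were equal on all 3 arrays. On the fear-conditioned array 10 were above naive, 0 below and 22 equal, with a median of 0.00. The largest differences belonged to tnnc2.2, a troponin C gene (0.44, from 4.68 to 5.12), actn3a, an alpha-actinin gene (0.43, from 4.16 to 4.59), the myosin heavy chain gene myhc4 (0.34, from 4.95 to 5.29), which is the next gene to myhz2 on its chromosome, and the troponin I gene tnni2b.2 (0.32, from 4.51 to 4.83). Among them, ldb3a differed most from naive on the sleep-deprived array after actn3a (0.34), at 0.30, followed by the troponin I gene tnni2b.1 at -0.24, which was below the dim limit, and ldb3b at -0.12. The summed signal of the 36 genes was 1.03 times that of naive on the fear-conditioned array and 1.02 times on the sleep-deprived array. The brightest of them, capza1b, weighs most in this sum and read 8.60 naive and 8.61 on both other arrays.

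Genes of the triad, where the fibre membrane meets the calcium store, and of the neuromuscular synapse had 22 members above the dim limit. On the fear-conditioned array 0.83% of all genes were higher and 0.763% lower by 1.5-fold. Of these 22, 0 were lower and 1 was higher by that much. It was atp2a1l, which encodes a calcium pump of the sarcoplasmic reticulum type, at 4.47 naive, 5.44 fear-conditioned and 4.47 sleep-deprived, a difference of 0.97. Its paralog atp2a1, the calcium pump gene of fast fibres, read 4.33, 4.47 and 4.42, and cacna1sb and srl differed from naive by 0.12 and 0.10. Sleep-deprived minus naive, the synaptophysin-like genes sypl2b and sypl2a differed by -0.72 and -0.66, and the calcium release channel genes ryr1b and ryr1a by 0.23 and 0.22. The first 2 were lower by 1.5-fold, where 2.43% of all genes were. None of the 22 was higher by that much, where 0.484% of all genes were. The median of the list was 0.00 in both comparisons, where 11 and 13 of the 22 were exactly equal to naive. Above and below naive were 8 and 3 on the fear-conditioned array, and 6 and 3 on the sleep-deprived array.

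Genes of energy metabolism in muscle, some of which are also expressed in brain, numbered 20. On the fear-conditioned array gapdh, a glycolytic enzyme gene, was at 0.77 (from 5.52 to 6.29), the muscle enolase gene eno3 at 0.49 (from 6.96 to 7.45), the aldolase gene aldoab at 0.26 and cox6a2 at 0.25, with a list median of 0.00. In the sleep-deprived sample gyg1b, which encodes the glycogen primer glycogenin, was at -0.65, eno3 at -0.39, gyg1a at -0.30 and the myoglobin gene mb at 0.60. None of the 20 was 2-fold apart in either comparison. By that much, 0.245% of all genes were higher and 0.184% lower on the fear-conditioned array, and 0.0947% and 0.668% on the sleep-deprived array. At 1.5-fold, 1 of the 20, gapdh, was higher and 0 were lower on the fear-conditioned array. On the sleep-deprived array 1, mb, was higher and 1, gyg1b, was lower by 1.5-fold. The 1.5-fold shares of all genes are those given above.

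Slow and cardiac muscle genes had no member at 1.5-fold among 24 above the dim limit, beside the 1.5-fold shares of all genes given above. Their largest differences on the fear-conditioned array ran in both directions, with tnnt2d at -0.49, tnnt1 at -0.37, myom1a at 0.33 and myh6, an atrial myosin gene, at -0.32. On the sleep-deprived array myl4 was at 0.45, myh7 at -0.25, tnnt1 at 0.18 and smyhc3 at 0.17. Their summed signal was 0.962 times that of naive on the fear-conditioned array and 1.01 times on the sleep-deprived one. Of 15 genes of muscle precursors and satellite cells above the dim limit none reached 1.5-fold either. In that list the naive signals of pax7a, mef2d and mef2ca were 8.44, 8.03 and 7.26, above the median of all values, 4.99. Also above it were mstnb at 8.84, mef2cb at 8.37, pax3a at 5.98 and mymx at 5.35. The rest of the list was below it on the naive array, among them myod1 at 4.55, myog at 4.48 and mymk at 3.86. Which cells gave the bright signals was not tested. On the fear-conditioned array six4b was at -0.39, pax3b at 0.13, pax7a at 0.11 and mef2ca at -0.09, and on the sleep-deprived array pax7a was at 0.55, mef2ca at -0.52, mymk, which encodes a fusion protein of myoblasts, at -0.19 and mef2d at 0.15. In the smooth muscle list of 13, the calponin gene cnn1b was at 0.59 on the fear-conditioned array, followed by desma (0.14), myl9b (-0.14) and acta2 (-0.06). On the sleep-deprived array acta2 was at -0.79, desma at 0.17, myl9b at 0.14 and desmb at -0.06. Of the 13, 1 (cnn1b) was 1.5-fold higher and 0 lower on the fear-conditioned array, where 0.83% and 0.763% of all genes were. On the sleep-deprived array 0 were higher and 1 (acta2) was lower by that much, where 0.484% and 2.43% of all genes were.

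The remaining parvalbumin and creatine kinase genes, several of them expressed in brain, had smaller differences than pvalb2 and ckma on these arrays. The signal of pvalb6, a parvalbumin gene of brain neurons in zebrafish, was 11.44 naive, 11.52 fear-conditioned and 11.44 sleep-deprived, and that of ckbb, a brain-type creatine kinase gene, was 11.07, 11.11 and 11.12. Both stayed within 0.1 of naive on the other arrays. Differences from naive on the fear-conditioned array were 0.15 for pvalb8, 0.11 for pvalb9, 0.00 for pvalb5, 0.13 for the mitochondrial creatine kinase gene ckmt1, 0.00 for ckba and ckmt2a, and -0.11 for ckmt2b. Sleep-deprived minus naive, the same genes in the same order were at 0.00, 0.20, -0.03, 0.05, 0.00, 0.00 and -0.11. Among genes of creatine supply, the transporter gene slc6a8 read 10.82 naive, 11.00 fear-conditioned and 10.44 sleep-deprived, gatm, which encodes the first enzyme of creatine synthesis, 6.75, 6.89 and 6.89, and gamt, which encodes the second, 6.32, 6.32 and 6.19. None of the 12 genes in this list reached 1.5-fold from naive, beside the 1.5-fold shares of all genes given above.

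On the array where pvalb2 and ckma were high, some genes of skin and some collagen genes were high as well. Of 19 measured skin and epithelium genes 18 lay above the dim limit. Of these 18, 4 were higher by 2-fold or more and 10 by 1.5-fold or more, with none 1.5-fold lower and a median of 0.67. Over all genes above the limit, 0.245% were higher by 2-fold, 0.83% higher by 1.5-fold and 0.763% lower by 1.5-fold. These shares also apply to the counts of bone, cartilage and fibroblast genes below. The keratin gene krt5 was at 1.81, epcam at 1.32, cdh1 at 1.27 and pkp3a at 1.14. The list of bone, cartilage and fibroblast genes had 4 of 18 past 2-fold, all of them higher and all collagen genes: col10a1a at 2.73, col1a1a at 2.66, col1a2 at 2.07 and col1a1b at 1.83. No other gene of that list reached 1.5-fold, 10 of the 18 were above naive, 2 below and 6 equal, and the median was 0.02. The summed signal of the fear-conditioned array, relative to naive, was 1.49 for skin and epithelium, 1.55 for bone, cartilage and fibroblast, and 1.03 for neuron genes. Markers of both tissues include genes already known to be high on this array when the lists were written. Their part in the muscle differences was not tested.

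Of the 18 skin and epithelium genes above the dim limit, 13 were below naive on the sleep-deprived array and 5 equal, with a median of -0.14. Lower by 2-fold was 1 of them, where 0.668% of all genes were, and 2 were lower by 1.5-fold, where 2.43% were. The largest differences were those of cdh1 at -1.26, agr1 at -0.63, krt4 at -0.58 and epcam at -0.57. The collagen genes were near naive there, with col10a1a at 0.32, col1a1a at 0.14, col1a1b at 0.13 and col1a2 at 0.09. Blood cell genes had a median of 0.00 on the fear-conditioned array, with hbba2, a haemoglobin gene, at 0.89, nt5c2l1 at -0.38, epb41b at -0.36 and hbae1.1 at 0.17. On the sleep-deprived array nt5c2l1 was at -2.53, epb41b at -1.13, alas2 at -0.32 and hbba2 at 0.24. There 2 of the 10 blood genes were at least 2-fold lower, where 0.668% of all genes were. None was higher by that much, where 0.0947% of all genes were. The median of the blood list was -0.05 on that array, with 4 genes above naive and 6 below, and its summed signal was 0.633 times that of naive. The brightest blood gene on the naive array, nt5c2l1, weighs most in the naive sum and read 9.21 naive and 6.68 sleep-deprived. The 3 haemoglobin genes hbaa2, hbba2 and hbae1.1 were above naive there, by 0.02, 0.24 and 0.17. Neuron genes differed little from naive, at most by 0.32 on the fear-conditioned array (tubb5, then syn2a at 0.22, stmn2a at 0.17 and stmn2b at 0.16) and 0.30 on the sleep-deprived one (syn2a, then gad2 at 0.27, tubb5 at 0.25 and nefmb at -0.17).

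**Figure D4:**
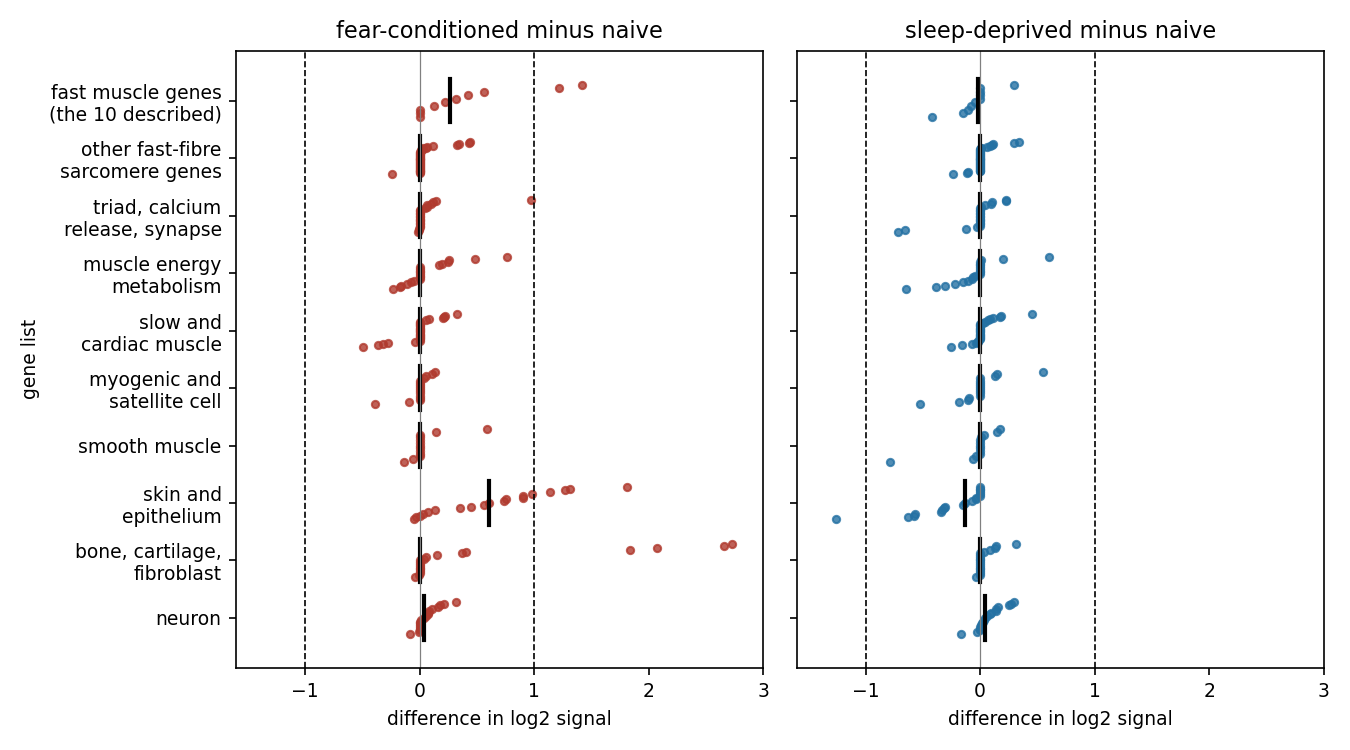
Difference in log2 signal from the naive array (horizontal axis) on the fear-conditioned array (left) and the sleep-deprived array (right) for each measured gene of 10 lists (vertical axis), 1 point per gene, dim genes included; black bars are list medians and dashed lines mark 2-fold. On the left, points past 2-fold occur among the 10 fast muscle genes, skin and epithelium, and bone, cartilage and fibroblast genes, and in none of the other 7 lists drawn.

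The genes most like pvalb2 over the 3 arrays were looked up by the Euclidean distance of their log2 differences from naive on the other 2 arrays. Only genes above the dim limit were searched, and names with a colon or starting with LOC or si were left out, so unlisted genes may lie nearer. The nearest 5 of those searched began with lipg, an endothelial lipase gene, at a distance of 0.15, and enam, which encodes an enamel matrix protein, at 0.17. The cytokine gene il11a followed at 0.18, the water channel gene aqp3a at 0.20 and itln4, an intelectin gene, at 0.22. Each was higher on the fear-conditioned array than on the naive one, by 1.26 (aqp3a) to 1.57 (il11a). On the sleep-deprived array il11a lay farthest from naive, at -0.21. None of these 5 is on the muscle lists used here. A likeness over 3 arrays is a description only.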

How the data were processed

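Brain RNA of 3 groups of adult zebrafish was measured on 1 array each. Per the labels' protocols, Trizol was used for extraction and the sense cDNA was fragmented and then biotinylated. The values deposited by the authors, 1 per probe set and array, were taken for log2 signals, since their range is 0.61 to 13.43; no source states the base. The median of 4.99 on each array shows that the arrays had been normalized against each other, which hides any shift common to all genes; for the method, no statement was found in the sources used. Gene names are those of the platform annotation, possibly outdated. Of 75212 probe sets 20806 had 1 symbol, 855 had several and 53551 had none; only the first were used, with symbols updated through Entrez identifiers of the RefSeq table for GRCz12tu for 20323. Probe sets of a gene were averaged.

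Genes whose highest array was below 3.45, the lower quartile of all values, were left out of counts, which left 17958 of 19260. Differences were taken as deposited and counted at 2-fold (1 on the log2 scale), with no test, since each group has 1 array. The 10 genes and the 11 other lists were chosen with earlier results of these data known. From each other list up to 4 genes with the largest difference from naive were named in each comparison, plus the other parvalbumin and creatine kinase genes. The 5 genes most like the one of the 10 with the largest difference were also named. For these, the 10 genes and names with a colon or starting with LOC or si were left out. Listed names no longer current were matched through synonyms. Counting was tested on simulated data. Alternatives were centring, quantile normalization, the brightest probe set, dim values set to the limit, no dim filter, a dim limit at the overall median and a 1.5-fold threshold; leaving out genes equal on all arrays was chosen after seeing the data. Python 3.11.15, numpy 2.4.6 and pandas 2.3.3 were used.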

Additional observations from a re-analysis of the deposited data

Results flagged for a closer look

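Among probe sets that the annotation assigns to several symbols and that no comparison used, 5 list a fast-fibre gene. One of them, assigned to klhl41b and col28a2b, was higher on the sleep-deprived array than on the naive array by 1.25 on the log2 scale. This is a signal in data outside the comparisons. In the same comparison 0.0947% of genes above the dim limit were at least 2-fold higher. That share covers genes measured by probe sets with 1 symbol, and no share was taken over probe sets with several. The probe set read 3.78 naive, 3.70 fear-conditioned and 5.03 sleep-deprived, and which of the genes it measures cannot be told apart. Of the other 4, 3 were equal on all 3 arrays.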

How the results depend on the processing

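The counts of the 10 genes at least 2-fold apart were 2, 0 and 2 for fear-conditioned over naive, sleep-deprived over naive and sleep-deprived over fear-conditioned, and they were the same under centring, quantile normalization, the brightest probe set, dim values set to the limit, no dim filter and a 1.5-fold threshold. A dim limit at the overall median left 5 genes and lowered the first and last counts to 1, because pvalb2 never reached that median. Leaving out genes equal on all 3 arrays, an alternative chosen after seeing the data, moved the median of fear-conditioned over naive from 0.32 to 0.42, because 2 ties at 0 were dropped. Over all genes, the 1.5-fold threshold gave 149 higher and 137 lower for fear-conditioned over naive in place of 44 and 33, 87 and 436 for sleep-deprived over naive in place of 17 and 120, and 101 and 487 for sleep-deprived over fear-conditioned in place of 24 and 156. With the brightest probe set, pvalb4 was at 0.63 in place of 0.32 and actc1b at 0.27 in place of 0.56 in fear-conditioned over naive, actc1b at 0.19 in place of 0.30 in sleep-deprived over naive, and pvalb4 at -0.72 in place of -0.36 and actc1b at -0.08 in place of -0.26 in sleep-deprived over fear-conditioned. No called difference changed sign under the alternatives run. Signals near the dim limit, as for pvalb2, leave the size of a fold uncertain, and no alternative can stand in for the missing replicates. No paired analysis was possible because each group has 1 array.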
